A study of Mus musculus with 15 samples.

Results

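SR proteins and heterogeneous nuclear ribonucleoproteins (hnRNPs) are the main families of RNA-binding proteins that choose splice sites. Their genes were taken as all protein-coding mouse genes whose symbol begins Srsf or Hnrnp. The rule gave 31 genes, 11 of them Srsf and 20 Hnrnp, of 28785 Ensembl gene IDs listed in the count files. Of these, 30 had an entry in a file, and Srsf12 had none, so no value is given for it. A gene was counted as measured when it reached 5 CPM (the gene's counts scaled to the library's total) in the higher of the 2 stages, which 29 of the 30 did (10 Srsf and 19 Hnrnp). Hnrnpll, the splicing repressor best known from T cells, stayed under that level. It had 5 counts over all MII oocytes and 123 over all GV oocytes, with 0, 0.392 and 2.59 CPM (lowest, median and highest) in MII oocytes and 0.611, 1.83 and 7.97 CPM in GV oocytes.

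SR proteins carry an RNA recognition motif and a domain rich in arginine and serine, bind mainly to exonic enhancers and help the U1 and U2 snRNPs to find splice sites. The hnRNPs coat nascent and nuclear RNA, often act against SR proteins on the same exons, and also work in RNA export, localisation, translation and decay. A fully grown oocyte with an intact nucleus, called the germinal vesicle (GV), is nearly silent in transcription. It carries the maternal mRNA through meiotic maturation to the arrest in metaphase of the second division (MII), during which many stored mRNAs are translated or degraded.

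The study sequenced single mouse oocytes by MATQ-seq, a method that amplifies total RNA of 1 cell, and the files hold exon counts per gene. There were 6 MII oocytes (MII1 to MII6) and 9 fully grown GV oocytes (GV1 to GV9). MII oocytes came from females given 7 IU of PMSG, a gonadotropin that stimulates follicle growth, then 7 IU of human chorionic gonadotropin 48 h later. They were collected from the oviducts after an additional 20 h and freed of cumulus cells with hyaluronidase at 300 IU/mL. For GV oocytes, females had 7 IU of PMSG alone, 44 h before collection. The age stated for the donors of GV oocytes is about 6 to 8 weeks, none is stated for those of MII oocytes, and the labels give neither the strain nor the mouse of any oocyte. Oocytes of 1 stage may therefore share a mouse, so each stage was taken as 1 sample: the stages were not tested against each other, and standard deviations (SD) describe the spread between oocytes only.

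Total counts ran from 808641 to 2348281 in MII oocytes and from 3687610 to 7103063 in GV oocytes. One unnamed feature took 15.7% to 61.2% of the counts in MII oocytes, 3.43% to 11.2% in GV7 to GV9 and 0 in GV1 to GV6. It was left out of the totals, which left 536101 to 1277878 counts in MII oocytes and 3275485 to 7103063 in GV oocytes. A count of 0 then allows up to 2.35 to 5.60 CPM in an MII oocyte, and up to 0.422 to 0.916 CPM in a GV oocyte, for counting error only. The count columns of GV1 to GV6, of GV7 to GV9 and of the MII oocytes carry 3 different headers which the sources used here do not explain. No MII file shares its header with a GV file, so stage and kind of file cannot be told apart. Oocyte markers were present in every library, with all 10 measured. They summed to 7701 to 17139 CPM in MII oocytes, and to 7474 CPM in GV2 and 15310 to 30320 CPM in the other GV oocytes. Cumulus and granulosa markers summed to 5.60 to 61.5 CPM in MII oocytes, where 7 of 12 were at 0, and to 9.16 to 221 CPM in GV oocytes, with MII6 at 61.5 CPM and GV1 at 221 CPM. Theca and stroma markers were highest at 58.9 CPM in MII5 among MII oocytes, and at 17.5 and 25.6 CPM in GV1 and GV2 among GV oocytes. Blood and immune markers summed to 24.3 CPM in MII5, 19.8 CPM in MII6 and at most 7.77 CPM in the other MII oocytes, and to at most 7.43 CPM in a GV oocyte. Only 1 of 6 theca and stroma markers and 1 of 7 blood and immune markers were measured, and 2 and 3 were at 0 in all MII oocytes. These sums thus rest on few genes. Oviduct markers were at 0 in all MII oocytes (3 of 3 genes), and at 8.32 and 9.85 CPM in GV1 and GV2 against at most 0.619 CPM in the other GV oocytes. GV1, GV2, MII5 and MII6 thus stood apart in some of these lists of other cells and not in others. Cumulus and granulosa markers were at 51.4 CPM in GV2 and 12.8 CPM in MII5, within the range of the other oocytes of their stage. Blood and immune markers were at 0.469 CPM in GV2, also within that range. By chi-square per degree of freedom, MII5 and MII6 were further from MII1 to MII4 (49.5 to 126) than from each other (23.2). The unnamed feature also took a larger share of counts in MII5 (52.6%) and MII6 (61.2%) than in MII1 to MII4. Its part in these chi-square values was not tested, so they do not show a difference over all genes. Below, the ratio of an SR or hnRNP gene is also given without GV1, GV2, MII5 or MII6 where that moved it by over 1.5 times or across 2-fold. For genes outside these families, ratios without these oocytes are not given.

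Summed over each family, the oocytes of the 2 stages overlapped, and the ratio of the stages lay near that of the median gene. SR genes together held 191 CPM in the pooled MII counts (180 to 202, exact 95% Poisson bounds), against 215 CPM (211 to 220) in the pooled GV counts. Single oocytes had 134, 186 and 278 CPM of SR genes (lowest, median and highest) in MII, and 137, 204 and 300 CPM in GV. The hnRNP genes together held 1084 CPM in MII (1058 to 1111) and 1328 CPM in GV (1317 to 1339). Single oocytes had 649, 1085 and 1576 CPM of hnRNP genes in MII, and 1053, 1338 and 1956 CPM in GV. The stages overlapped for both sums; MII5 was the lowest and GV2 the highest of all oocytes for hnRNP genes. Without GV1 and GV2 the pooled GV counts held 1236 CPM of hnRNP genes. The median measured gene itself was lower in MII by this measure, with a log2 ratio of MII over GV of -0.29. Relative to it, the summed ratio was 0.11 for SR genes and -0.01 for hnRNP genes. With the unnamed feature kept in the totals the median gene was at -0.95, and every uncentred ratio moved down with it. All ratios below are log2 ratios of MII over GV from summed counts, relative to that median gene, so they describe shares of the RNA sequenced and not amounts per oocyte.

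**Figure D1:**
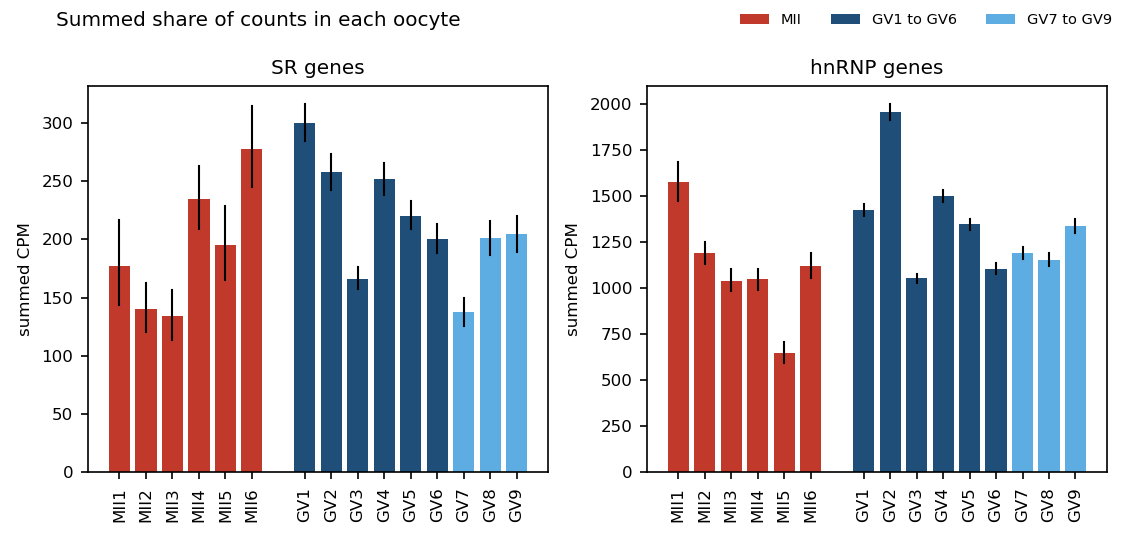
Summed CPM of the SR genes (left) and the hnRNP genes (right) in each oocyte, with MII oocytes left of GV oocytes; bars are single oocytes and black lines their exact Poisson 95% intervals. SR genes lie between 134 and 278 CPM in MII oocytes and between 137 and 300 CPM in GV oocytes, and hnRNP genes range from 649 CPM in MII5 to 1956 CPM in GV2.

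Among single genes, 4 of 29 (13.8%) were at least 2-fold lower in MII than the median gene, where 15.8% of all 10410 measured genes were. These were Hnrnpm, Hnrnph2, Hnrnpr and Srsf6. At least 2-fold higher were 5 of 29 (17.2%), where 12.9% of all measured genes were: Hnrnpa0, Srsf9, Srsf2, Hnrnpd and Hnrnph3. The other 20 lay within 2-fold. Both shares were near those of all genes. Without GV1 and GV2, 28 members were measured, of which 4 were lower (13.5% of all genes) and 5 higher (12.7%); Hnrnph2 was no longer measured and Srsf3, at -1.02, was among the lower ones. Without MII5 and MII6, 5 of 29 were lower (17.7% of all genes), now with Srsf7, and 4 higher (11.0%), without Hnrnph3. Without all 4 oocytes, 4 of 28 were lower (15.6% of all genes) and 4 higher (10.8%). No member had levels that did not overlap between the stages in either direction, while 0.845% of all measured genes were lower and 1.62% higher in MII without overlap. By plain CPM of all counts, Hnrnpa3 and Hnrnpk were lower in MII without overlap, as were 4.51% of all genes, and no member was higher, against 0.0768% of all genes. The median ratio was 0.17 for SR genes (combined SD of the list's median level 0.59) and -0.04 for hnRNP genes (0.74), against 0 for all measured genes by construction. The combined SD is the root of the summed variances of the level in MII and in GV oocytes, the level being log2(CPM + 1) minus the oocyte's median measured gene. A gene's ratio was larger than its own combined SD for 4 members below the median gene (Hnrnpa3, Hnrnph2, Hnrnpm and Hnrnpr), as for 9.87% of all measured genes, and for 1 above it (Hnrnpa0), as for 8.83%. In either direction the share was 17.2% of the members and 18.7% of all measured genes.

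**Figure D2:**
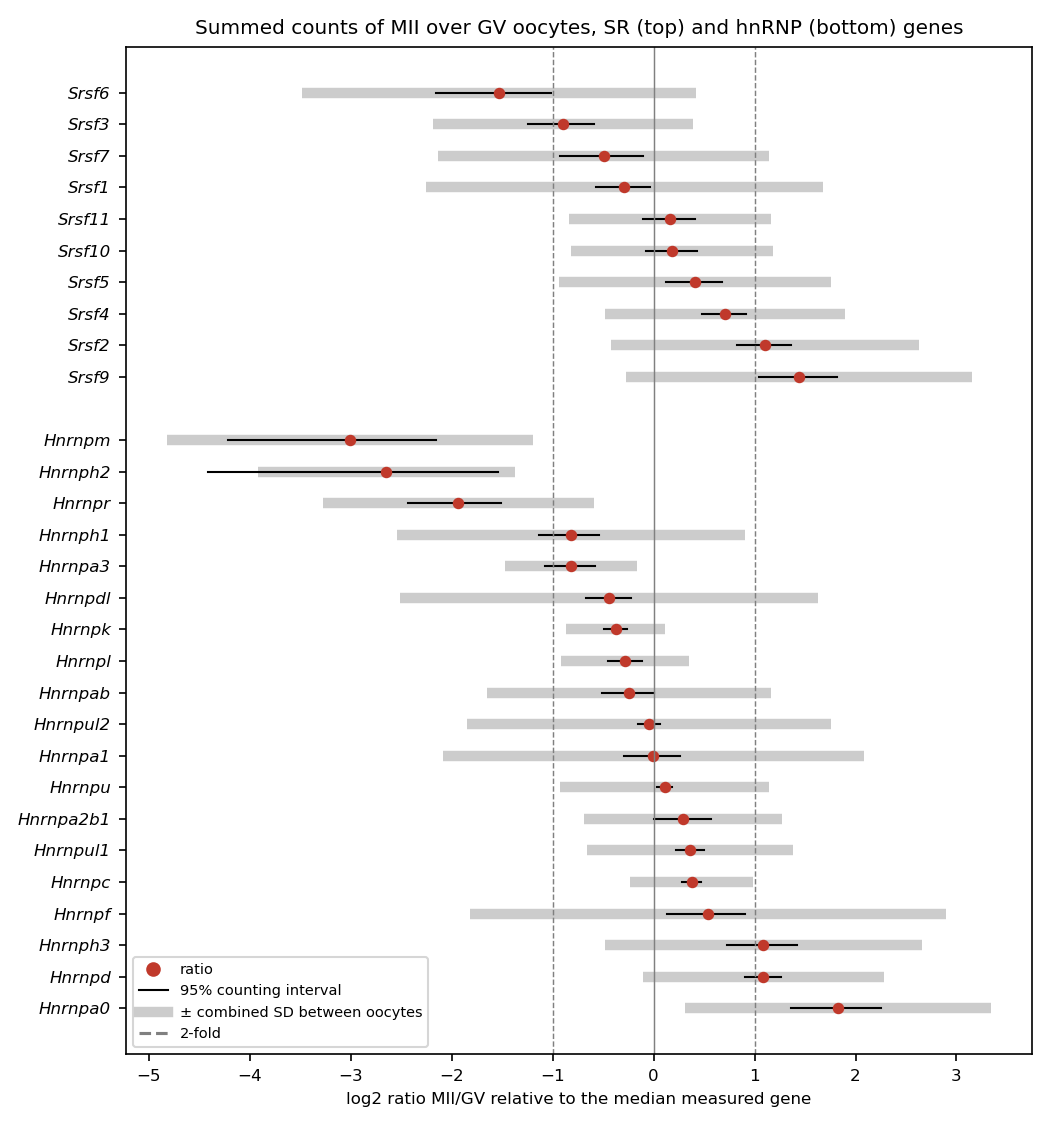
Log2 ratio of MII over GV relative to the median measured gene for the 29 measured SR and hnRNP genes; points are ratios of summed counts, black lines 95% counting intervals, grey bars 1 combined SD between oocytes to each side, and dashed lines 2-fold. Ratios run from -3.01 (Hnrnpm) to 1.82 (Hnrnpa0), and the grey bars of 5 genes (Hnrnpm, Hnrnph2, Hnrnpr, Hnrnpa3 and Hnrnpa0) do not reach the median gene at 0.

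Per kilobase of merged exons, the most abundant member in both stages was Hnrnpc, whose protein forms tetramers on nascent RNA and binds uridine runs. It had 40.6 CPM per kb in MII and 38.2 in GV, ahead of Hnrnpu with 24.8 and 28.1 CPM per kb. Hnrnpc had 116, 178 and 268 CPM (lowest, median and highest) in MII oocytes and 91.8, 165 and 273 CPM in GV oocytes, with no order between the stages, and a ratio of 0.38 (combined SD 0.61). Hnrnpu, which encodes the scaffold attachment factor that binds chromatin and RNA, took the most counts of the hnRNP family, 26.6% in MII and 24.5% in GV. It had 84.5, 310 and 506 CPM in MII oocytes and 218, 331 and 450 CPM in GV oocytes, with a ratio of 0.11 (combined SD 1.04). The MII range of Hnrnpu enclosed the whole GV range, and the lowest oocyte was MII5. Hnrnpul2, a relative of Hnrnpu, had 19.4 CPM per kb in MII and 24.4 in GV. Hnrnpk, whose KH domains bind cytidine-rich RNA, had 17.4 in MII and 27.5 in GV, below Hnrnpul2 in MII and above it in GV. Hnrnpk had 72.5, 110 and 183 CPM in MII oocytes and 121, 177 and 239 CPM in GV oocytes. Most MII oocytes lay below the GV median, but the ranges overlapped; its ratio was -0.38, with the smallest combined SD of all members (0.49). With the length of the principal transcript in place of merged exons, a choice made after seeing the data, Hnrnpk had 66.5 CPM per kb and Hnrnpc 66.0 in GV, so their order there depends on the length used. Among SR genes, Srsf4 was the most abundant per kb of merged exons in both stages, with 9.69 CPM per kb in MII and 7.26 in GV. By principal transcripts Srsf4 led in MII with 15.3 CPM per kb, while in GV Srsf3 led with 12.4, ahead of Srsf5 (12.2) and Srsf4 (11.5).

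**Figure D3:**
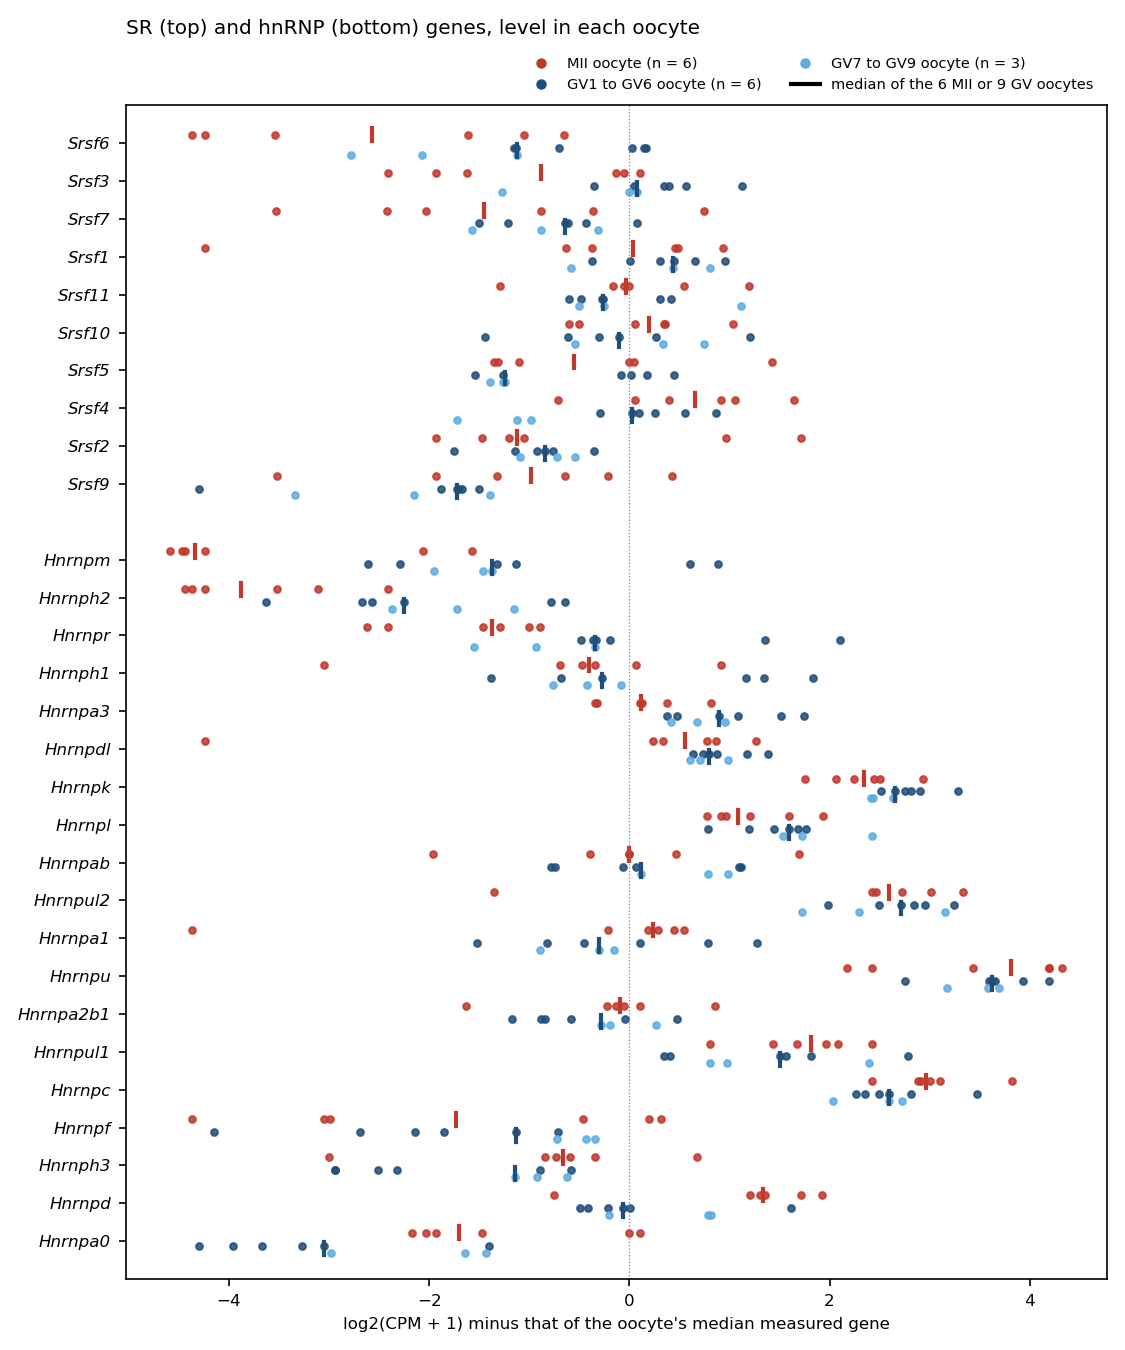
Level of each measured SR and hnRNP gene (vertical axis) in every oocyte, on the log2(CPM + 1) scale with each oocyte's median measured gene set to 0 (horizontal axis); points are single oocytes, MII above GV for each gene, and bars the median of the 6 MII or 9 GV oocytes. For all measured members the points of the stages overlap, and the lowest MII points of Hnrnpa1, Hnrnpdl and Srsf1 are oocytes with 0 counts.

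Of the SR genes, Srsf6 alone was at least 2-fold lower in MII. It encodes an SR protein that binds exonic enhancers. Srsf6 had 0, 3.56 and 14.3 CPM in MII oocytes and 2.30, 13.1 and 34.7 CPM in GV oocytes, from 28 and 728 counts. MII4 and MII5 had no count of Srsf6, and the MII oocytes that had most overlapped the GV range. Its ratio was -1.53 (95% counting interval -2.16 to -1.01), smaller than its combined SD of 1.95. The ratio was -2.16 without MII6. Only the oocytes GV1 to GV6 gave a large difference for Srsf6, -1.84, while over GV7 to GV9 the ratio was -0.25. Srsf3, the smallest SR protein and an adaptor for mRNA export, was next. Srsf3 had 2.56, 13.2 and 21.2 CPM in MII oocytes and 8.42, 30.3 and 66.4 CPM in GV oocytes, a ratio of -0.90 (-1.24 to -0.59; combined SD 1.29). Without MII4 the ratio of Srsf3 was -1.13 and without MII6 -1.02, and over GV1 to GV6 it was -1.08, all just past 2-fold, while over GV7 to GV9 it was -0.39. Srsf7, also an export adaptor, had 0.784, 8.20 and 30.7 CPM in MII oocytes and 6.63, 14.7 and 33.3 CPM in GV oocytes. MII5 was the highest MII oocyte for Srsf7: the ratio of -0.50 (-0.93 to -0.11; combined SD 1.64) became -1.13 without that oocyte and -1.44 without MII5 and MII6, or -1.33 without GV1 and GV2 as well.

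At the other end, Srsf9 had the highest ratio of the SR genes. Its product, a short SR protein, can act on splicing in both directions. Srsf9 had 1.10, 10.4 and 26.7 CPM in MII oocytes and 0.569, 6.60 and 9.16 CPM in GV oocytes, from 75 and 245 counts. MII3, MII4 and MII5 lay above every GV oocyte and MII6 near the bottom of the GV range. The ratio of Srsf9 was 1.44 (1.04 to 1.81; combined SD 1.71), or 0.90 without MII4. Srsf2, the factor SC35 that marks nuclear speckles, had 5.60, 9.05 and 66.7 CPM in MII oocytes and 6.33, 13.0 and 19.3 CPM in GV oocytes. Only MII4 (66.7 CPM) and MII5 (35.9 CPM) exceeded the GV oocytes, while the other MII oocytes had 5.60 to 9.50 CPM. Its ratio of 1.10 (0.83 to 1.36; combined SD 1.53) was 0.16 without MII4 and -0.29 with the median CPM of each stage in place of summed counts, so its direction rests on these oocytes. Without MII5 it was 0.98, and over GV7 to GV9 0.93. Exons of Srsf2 also overlap those of Mettl23 and Mfsd11 on the opposite strand, over 15.6% and 9.74% of its length, and the sources used here do not say whether counting used strand. Srsf4, an SR protein with a long serine-rich tail, had 12.5, 34.6 and 63.5 CPM in MII oocytes and 7.98, 25.4 and 43.9 CPM in GV oocytes, a ratio of 0.71 (0.48 to 0.92; combined SD 1.19). Its GV values split by kind of file, as described below, and 43.0% of its exon length is shared with Gm12992 on the opposite strand.

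The remaining SR genes lay close to the median gene. Srsf1, the founding member of the family, had a ratio of -0.29 and 0 counts in MII5, which allows up to 3.84 CPM there. Srsf10, which can repress splicing when it is dephosphorylated, had 0.18, and Srsf11 had 0.16. Srsf5 had 0.41, which turned to -0.24 without MII6. None of these 4 ratios was larger than its combined SD.

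The ratios of the 19 measured hnRNP genes ran from -3.01 to 1.82 and those of the 10 SR genes from -1.53 to 1.44. A range depends on the number of genes, which differs here. The lowest ratios, those of Hnrnpm and Hnrnph2, came from 9 and 5 counts in MII. The median combined SD was 1.34 for hnRNP genes and 1.44 for SR genes. Hnrnpm, whose protein binds GU-rich RNA and regulates alternative exons, had the lowest ratio of all members. It had 0, 0 and 7.46 CPM in MII oocytes and 3.38, 9.46 and 48.5 CPM in GV oocytes, from 9 and 675 counts. Only MII1 (7.46 CPM) and MII4 (3.92 CPM) held counts, and these overlapped the lower GV oocytes. GV1 (48.5 CPM) and GV2 (44.6 CPM) stood far above the other GV oocytes, which had 3.38 to 13.1 CPM. The ratio of Hnrnpm was -3.01 (-4.22 to -2.15; combined SD 1.82); it was -3.63 without MII1, -3.77 without MII4, -1.98 without GV1 and GV2, -2.51 without MII5 and MII6, and -1.48 without all 4 oocytes. It stayed past 2-fold in every one of these. Set against a single kind of GV file it was also past 2-fold, at -3.26 for GV1 to GV6 and -2.14 for GV7 to GV9. Hnrnpm shares 14.7% of its exon length with March2 on the same strand, which had 32 counts in MII and 293 in GV.

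Hnrnpr, a close relative of Syncrip with a role in axonal mRNA transport in neurons, had 2.35, 8.12 and 11.0 CPM in MII oocytes and 9.08, 18.6 and 105 CPM in GV oocytes. All MII oocytes lay below the GV median, and by CPM only GV8 lay within the MII range. GV1 had 82.0 CPM and GV2 105 CPM, against 9.08 to 26.0 CPM in the other GV oocytes. The ratio of -1.94 (-2.43 to -1.51; combined SD 1.34) was -1.06 with GV1 and GV2 left out and -1.04 with MII5 and MII6 left out too. Over GV1 to GV6 alone it was -2.23, without overlap of levels, as were 1.32% of all genes lower in MII in that comparison. Against GV7 to GV9 alone the ratio of Hnrnpr was -0.69, within 2-fold.

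Hnrnph2 and Hnrnph1 encode near-identical proteins that bind runs of guanosines, and reads may be split between their genes. Hnrnph2 had 0, 0.549 and 3.73 CPM in MII oocytes and 1.03, 5.50 and 19.8 CPM in GV oocytes, from only 5 and 304 counts. Its ratio of -2.65 (-4.42 to -1.54; combined SD 1.28) was -3.13 without MII1. Without GV1 (19.8 CPM) and GV2 (13.4 CPM), the highest GV oocytes, the gene was under the level at which genes were counted as measured. Against GV7 to GV9 alone, its levels did not overlap and the ratio was -2.79, as 12.0% of all genes were lower without overlap there. Hnrnph1 had 1.28, 15.6 and 46.6 CPM in MII oocytes and 8.66, 20.4 and 86.8 CPM in GV oocytes, with GV1 (81.2 CPM), GV2 (86.8 CPM) and GV4 (68.6 CPM) far above the rest. Its ratio of -0.82 (-1.13 to -0.54; combined SD 1.73) was -1.06 without MII1, -0.27 without GV1 and GV2, and -0.14 without these and MII5 and MII6. Over GV1 to GV6 it was -1.07, past 2-fold, and over GV7 to GV9 it was 0.05. The related Hnrnpf had a ratio of 0.54, with the widest spread of all members (combined SD 2.36), and -0.11 without MII2. Its direction turned with the kind of GV file: the ratio was 1.02 over GV1 to GV6 and -0.47 over GV7 to GV9.

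Hnrnph3, a shorter relative of the H group, was higher in MII by summed counts. It had 1.57, 12.6 and 37.3 CPM in MII oocytes and 2.27, 11.0 and 17.7 CPM in GV oocytes, with only MII6 above the GV range. Its ratio of 1.08 (0.72 to 1.42; combined SD 1.57) was 0.63 without MII6, 0.93 to 0.98 without GV3, GV4, GV5 or GV6 in turn, 1.43 without GV1 and GV2, 0.61 without MII5 and MII6, 0.95 without all 4, and 0.34 against GV7 to GV9.

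Hnrnpa0, a single-exon member of the A/B group known for binding AU-rich elements, had the highest ratio of all members. It had 3.91, 6.64 and 21.2 CPM in MII oocytes and 0.569, 2.75 and 9.13 CPM in GV oocytes, from 61 and 153 counts. MII4 (21.2 CPM) and MII5 (17.9 CPM) exceeded all GV oocytes, and the other MII oocytes, with 3.91 to 7.68 CPM, lay within the GV range. The ratio was 1.82 (1.36 to 2.25; combined SD 1.52), and 1.31 without MII4. Against the oocytes GV1 to GV6 it was 2.18. It was just within 2-fold over GV7 to GV9, at 0.97, and, without centring, with all counts in the totals, at 0.87. Hnrnpd, also called AUF1, which promotes decay of mRNAs with AU-rich elements, had 10.2, 52.2 and 95.1 CPM in MII oocytes and 14.5, 25.8 and 74.8 CPM in GV oocytes. In all MII oocytes but MII5 it was at 50.1 CPM or more, which only GV2 (74.8 CPM) among GV oocytes exceeded. The ratio of Hnrnpd was 1.09 (0.90 to 1.26; combined SD 1.19), 1.32 without GV2, 0.98 without GV3 or MII6, and 0.76 against GV7 to GV9. Without GV1, GV2, MII5 and MII6, an alternative chosen after seeing the data, its ratio was 1.41 and its levels did not overlap, as 3.96% of all genes were higher in MII without overlap there; no member was lower in this way, against 2.82% of all genes.

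Within the A/B group, ratios ran in both directions. Hnrnpa3, a protein of mRNA trafficking, had 14.1, 23.9 and 35.3 CPM in MII oocytes and 29.4, 44.9 and 91.8 CPM in GV oocytes. By CPM only MII1 and MII4 were above the lowest GV oocyte, and the ratio was -0.82 (-1.08 to -0.58; combined SD 0.65). With all oocytes its levels overlapped: MII4 was at 0.82, above GV3 (0.48), GV6 (0.37), GV8 (0.42) and GV9 (0.67). The next MII oocyte, MII1, was at 0.37, as was GV6. Without MII4 the ratio of Hnrnpa3 was -1.04 and its levels just ceased to overlap, as 1.10% of all genes were lower without overlap there, while by CPM MII1 (31.7 CPM) still lay above GV3 (29.4 CPM). Hnrnpa1, the best studied splicing repressor of the family, had a ratio of -0.00 (0.52 without GV1 and GV2), with 0, 24.5 and 31.3 CPM in MII oocytes and 6.62, 22.3 and 58.9 CPM in GV oocytes. Hnrnpa2b1, a reader of RNA sorting signals, had 0.29, Hnrnpab had -0.25 (0.04 without GV1 and GV2, -0.65 without MII5), and Hnrnpdl, the close relative of Hnrnpd, had -0.44. The last had 0 counts in MII5, which allows up to 3.84 CPM. Processed pseudogenes copy several of these genes, Hnrnpa1 and Hnrnpa3 among them, and the counting could split their reads. Hnrnpl, which binds CA repeats, had -0.28, Hnrnpul1 had 0.36 and Hnrnpul2 had -0.04, all within their combined SD.

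One feature that the rule did not use is the 3′ end of the mRNA. Cytoplasmic polyadenylation elements (CPEs), bound by CPEB1, mark stored oocyte mRNAs that are polyadenylated and translated during maturation. The motifs TTTTAT and TTTTAAT were searched on the sense strand in the last 100 bases of the 3′ UTR of each gene's principal GENCODE M21 transcript (build GRCm38). They were found in 3 of the 29 measured members (10.3%) and in 1830 of 8984 measured protein-coding genes (20.4%). The sites are printed because they are the stretches of these mRNAs that hold the motif, with motifs and the polyadenylation signal AATAAA in capitals, and they are the 3 of measured members and that of Hnrnpll.
Hnrnpa2b1, chromosome 6: tacaagTTTTATaaAATAAAtacttttgta
Hnrnpd, chromosome 5: actaaaTTTTATtttctgaaagatcactta
Srsf4, chromosome 4: TTTTAATTTTATttttccccgtcttgcaaa
Hnrnpll, chromosome 17: agttaaTTTTATttttgatcaaaacagcta
In Srsf4 both motifs overlap, and in Hnrnpa2b1 the motif begins 27 bases from the annotated end, next to the polyadenylation signal. In Hnrnpd, Srsf4 and Hnrnpll the motif begins 77, 81 and 87 bases from that end. The measured members with a motif, Hnrnpd, Srsf4 and Hnrnpa2b1, had ratios of 1.09, 0.71 and 0.29, all above the median gene. Against GV7 to GV9 alone, Hnrnpa2b1 was at -0.11. Hnrnpll, which has the motif but was not measured, lay the other way at -1.35, from 5 counts in MII and 123 in GV. The 26 members without one had a median ratio of -0.14. Over all measured protein-coding genes the median was -0.05 with a motif and 0.01 without. A match only says that these letters stand in this window of the annotated transcript.

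The spread between oocytes was wide for most members. Over the 29 members the median SD of the level was 1.09 in MII oocytes and 0.75 in GV oocytes, against 0.97 and 0.84 over all measured genes. The SD was larger in MII for 22 of 29, a share not counted over all genes. MII oocytes also had fewer counts, and the part of that in these SDs was not tested. Within GV1 to GV6 the median SD of the members was 0.63 and within GV7 to GV9 it was 0.45. Over all measured genes these were 0.79 and 0.47. Counts were present in every GV oocyte for all 29 and in every MII oocyte for 22. Of the 30 genes with an entry, 24 to 30 had counts in a given MII oocyte and all 30 in each GV oocyte. After thinning every oocyte to 536101 counts, 24 to 30 were detected in an MII oocyte and 28 to 30 in a GV oocyte. MII5 had the lowest MII level for 10 members, a share not counted over all genes. MII5 also had the fewest genes with counts, 9617 against 11303 to 13873 in the other MII oocytes. After thinning it had 9235 against 10327 to 11998. The part of MII5 in the spread was not tested apart from the values given without it. By level, GV1 or GV2 was the highest GV oocyte for 19 of 29 members (GV2 for 16), a share not counted over all genes. By CPM, which of them is higher can differ, as for Hnrnpm with 48.5 CPM in GV1 and 44.6 CPM in GV2. GV1 and GV2 also had the most genes with counts, 18853 and 17794, against at most 17174 in the other GV oocytes. GV2 had the lowest summed oocyte markers of the GV oocytes (7474 CPM). In 8 members both GV1 and GV2 lay above all other GV oocytes by level, 27.6% of 29, where 6.88% of all measured genes did. These were Hnrnpa1, Hnrnpa3, Hnrnpab, Hnrnph1, Hnrnph2, Hnrnpm, Hnrnpr and Srsf5. GV1 and GV2 are also the GV oocytes with the most theca, stroma and oviduct marker counts, and the part of other cells, or of the low oocyte markers of GV2, in these values was not tested.

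The GV files of different header differed for some members as much as the stages did. GV7 to GV9 over GV1 to GV6, 6 of 29 members were at least 2-fold lower relative to the median gene, where 20.2% of 10856 genes were, and 3 were at least 2-fold higher, where 18.1% were. Lower were Srsf6 (-1.55), Srsf4 (-1.54), Hnrnpr (-1.50), Hnrnph1 (-1.09), Hnrnpm (-1.08) and Srsf5 (-1.08), and higher were Hnrnpf (1.53), Hnrnpa0 (1.25) and Hnrnph3 (1.07). GV1 and GV2, which stood apart above, both belong to GV1 to GV6. For Hnrnpm, GV3 to GV6 had 3.38 to 13.1 CPM and GV7 to GV9 4.85 to 10.5 CPM. For Hnrnph1, GV7 to GV9 had 16.5 to 20.5 CPM. GV3 lay within that range, GV5 and GV6 below it, and GV1, GV2 and GV4 above it. For Srsf6, GV3 to GV6 had 13.1 to 24.5 CPM, all above GV7 to GV9 (at most 12.2 CPM). The part of GV1 and GV2 in these ratios was not tested. Srsf4 had 10.5, 7.98 and 12.2 CPM in GV7, GV8 and GV9 and 21.3 to 43.9 CPM in GV1 to GV6, and its levels did not overlap, where 6.05% of all genes were lower in this way. Hnrnpf had 12.8, 20.9 and 21.7 CPM in GV7, GV8 and GV9 and 0.412 to 14.1 CPM in GV1 to GV6, with levels that did not overlap, where 10.8% of genes were higher in this way. The comparison of stages moved with the choice of GV oocytes for the same genes: for Srsf4 the ratio of MII over GV was 0.41 against the first kind of file (GV1 to GV6) and 1.98, without overlap, against the second (GV7 to GV9), where 8.58% of all genes were higher in MII in this way. For Srsf5 the ratios were 0.16 and 1.28.

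**Figure D4:**
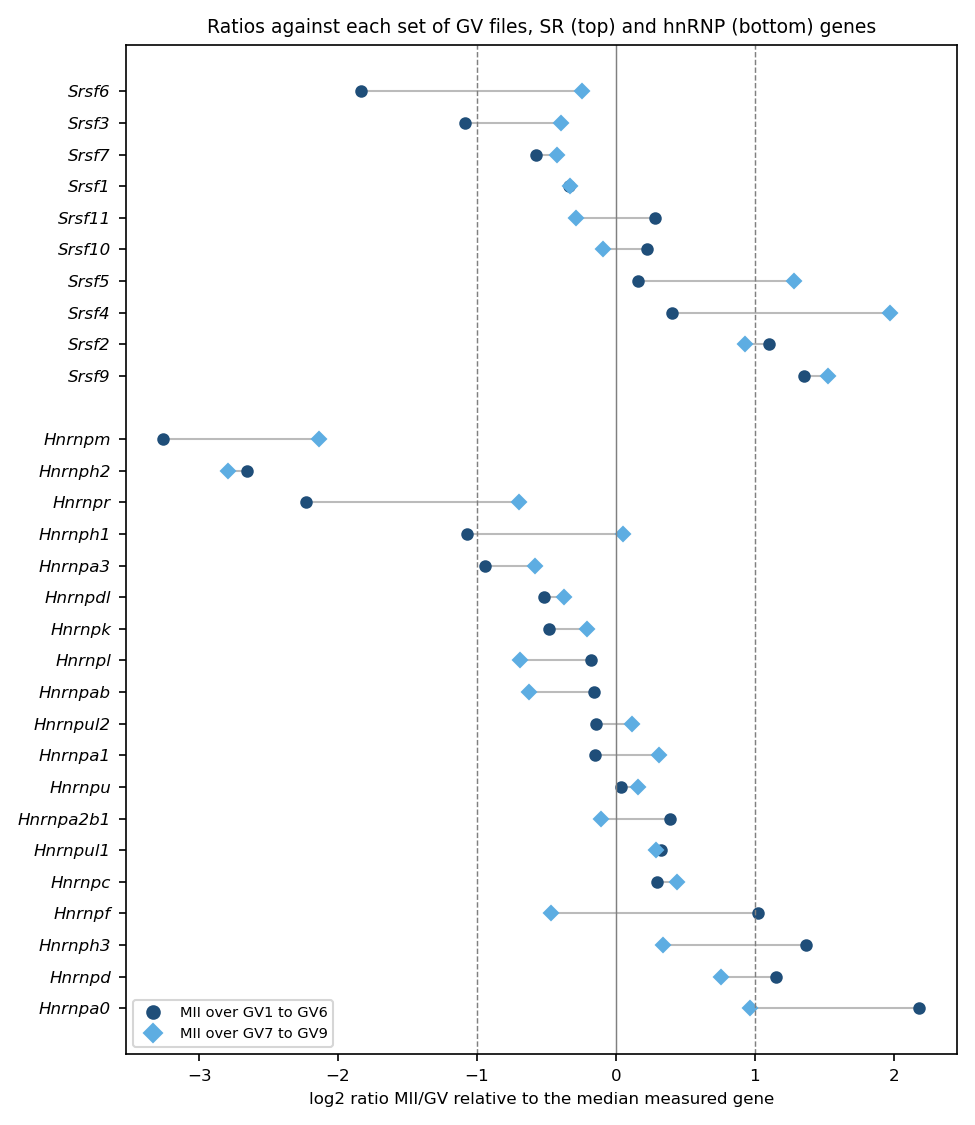
Log2 ratio of MII over each set of GV oocytes for the 29 measured members (vertical axis), relative to the median measured gene; circles are ratios over GV1 to GV6, diamonds ratios over GV7 to GV9, and dashed lines mark 2-fold. Both ratios of a gene share the MII oocytes. Srsf4 has its circle at 0.41 and its diamond at 1.98, and both marks of Hnrnpm and Hnrnph2 lie past 2-fold on the lower side.

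Genes that act with the SR and hnRNP proteins were described from lists of splicing factors, over the same background of 15.8% lower and 12.9% higher. Of 9 measured kinases and import receptors of SR proteins, 1 was at least 2-fold lower and 1 higher, with a median ratio of 0.43. The highest was Clk2, a nuclear kinase that releases SR proteins from speckles, with 167, 207 and 307 CPM in MII oocytes and 80.7, 118 and 136 CPM in GV oocytes. Every MII oocyte exceeded every GV oocyte for Clk2, where 1.62% of all measured genes were higher in MII without overlap of levels. The ratio of Clk2 was 1.16 (combined SD 0.56). The lowest was the related kinase Clk4 at -1.29, from 10 counts in MII and 226 in GV, and the most abundant per kb was Dyrk1a with 91.1 CPM per kb in MII and 82.3 in GV. Of 17 measured SR-related proteins, which carry serine-arginine stretches without being SR proteins, 0 were lower and 4 higher by 2-fold or more, with a median ratio of 0.37. The higher ones were Srrm4 (2.44, from 38 counts in MII and 62 in GV), Luc7l3 (1.33), Acin1 (1.09) and Luc7l2 (1.05), while Srrm2, a core speckle protein, was lowest at -0.85. Cherp was the most abundant of that list per kb, with 103 CPM per kb in MII and 162 in GV.

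Of 25 other measured RNA-binding regulators of splicing, 7 were lower by 2-fold or more, 0 were higher by as much, and their median ratio was -0.19. That median was -0.29 against GV1 to GV6 alone and 0.11 against GV7 to GV9 alone. In GV7 to GV9 over GV1 to GV6, 9 of 26 genes of the list were at least 2-fold lower, where 20.2% of all genes were. Only 1 was at least 2-fold higher, where 18.1% were. The lowest ratio of MII over GV was that of Syncrip, also called hnRNP Q. It had 0, 0 and 1.87 CPM in MII oocytes and 0.191, 1.02 and 73.9 CPM in GV oocytes. Its ratio was -4.48 (combined SD 2.44), but -0.20 against GV7 to GV9 alone. The value of -4.48 rests on those oocytes among GV1 to GV6 that lay far above the GV median of 1.02 CPM. The highest was Pcbp2 at 0.60, a poly(C)-binding protein that belongs to the same KH-domain group as Hnrnpk; it was also the most abundant per kb in MII, at 160 CPM per kb against 128 in GV. Pcbp1, its intronless relative, was the most abundant in GV, with 160 CPM per kb in MII and 188 in GV. Of 21 measured U1 and U2 snRNP proteins and U2AF subunits, 2 were lower and 3 higher by 2-fold, from Snrpd2 at -1.83 to Snrpg at 2.64, with Sf3a1 the most abundant per kb (141 in MII, 88.1 in GV). Of 21 measured proteins of the U4/U6.U5 snRNP and the Prp19 complex, 4 were lower and 4 higher, from Prpf4 at -2.76 to Ppih at 2.00. Ppih, a cyclophilin of the tri-snRNP, was higher in MII without overlap, as were 1.62% of all measured genes. Per kb, Ctnnbl1 led that list in MII with 92.4 CPM per kb, and Prpf8, the core of the U5 snRNP, led in GV with 122. The median ratios of these last lists were 0.36 and 0.18.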

How the data were processed

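Per the labels' protocols, single oocytes were processed by MATQ-seq with 28 PCR cycles and sheared to 300 bp. Reads were handled with STAR 2.7.10a and cutadapt 4.0 on build GRCm39, per the submitters' processing notes. The sources used here name no counting tool, strand setting or molecular identifiers. The deposited values are raw exon counts by Ensembl ID, in 1 file for each oocyte. Symbols, biotypes, exon lengths and transcript 3′ ends came from GENCODE M21 (GRCm38), which named 98.8% of the IDs; coordinates are not printed since the builds differ.

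Counts were summed per stage and divided by totals without the most abundant unnamed feature. A log2 ratio was taken after adding 0.5 to each sum and set relative to the median of 10410 genes that reached 5 CPM in a stage. Intervals are exact 95% Poisson (levels) and conditional binomial (ratios), for counting error only; PCR reads are not independent molecules. Levels used a pseudocount of 1 CPM. No 2 of the 51 pairs of oocytes within a stage held identical values (lowest chi-square per degree of freedom 7.26). Amplified reads inflate this measure, so it does not settle whether a pair is a repeat, and each labelled oocyte was counted as 1. Full values were given for the most abundant members, the 3 lowest and 3 highest ratios of each family, members without overlap and those under the filter; other values were added where oocytes stood apart. The members and lists were chosen with earlier results of these data known. The scripts were tested on simulated data and run with Python 3.11.15, pandas 2.3.3, scipy 1.17.1 and, for TMM scaling, edgeR 4.0.16. Alternatives were other scalings, filters, summaries of a stage, GV file sets and leaving out oocytes.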

Additional observations from a re-analysis of the deposited data

Results flagged for a closer look

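In each stage, the highest and the lowest oocyte were compared with the nearest of the others by Dixon's criterion for each of the 29 measured members, 58 groups in all; chance flags about 1 in 20 such groups. In 5 groups 1 oocyte stood apart, each time as the lowest MII oocyte, and 4 of the 5 were MII5. MII5 had a level of -4.24 relative to its median gene for Hnrnpdl and -4.24 for Srsf1, both with 0 counts. For Hnrnpul2 the level in MII5 was -1.35, from 5 counts (6.40 CPM). For Hnrnpd it was -0.75, from 8 counts (10.2 CPM). MII4 had a level of -4.37 for Hnrnpa1, with 0 counts. Levels at 0 counts are set by the pseudocount. With the CPM that 3 counts would give in place of 0, a choice made after seeing the data, Hnrnpa1 in MII4 (level -2.62) and Hnrnpdl in MII5 (-1.97) still stood apart, and Srsf1 in MII5 (-1.97) did not. MII5 is also the MII oocyte with the most theca, stroma and blood marker counts and the fewest genes with counts (9617). The part of either in its low levels was not tested, and such flags were not counted over all genes.

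Outside the protein-coding members, the processed pseudogene Hnrnpa1l2-ps held 38.5 CPM in GV1 (185 counts) and 48.1 CPM in GV2 (205 counts). The other GV oocytes had 0 to 0.611 CPM, and MII oocytes had 0 to 1.87 CPM. In the same GV1 and GV2 the parent-like gene Hnrnpa1 had 54.7 and 58.9 CPM, above all other GV oocytes. Whether reads of these loci were split by the counting was not tested.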

How the results depend on the processing

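Without centring and with all counts in the totals, 13 of 29 members were at least 2-fold lower and 0 higher, where 47.9% and 2.66% of all measured genes were. Without centring and without the unnamed feature these were 7 and 2 of 29 (22.0% and 8.01% of all genes). A filter of 20 CPM left 21 members, with 2 lower and 0 higher (9.78% and 10.4%). No filter left 30, with 6 lower and 2 higher (24.8% and 25.4%). Mean CPM gave 4 lower and 3 higher (15.6% and 13.6%), and median CPM 3 lower and 2 higher (14.2% and 12.5%). Against GV7 to GV9 alone, 2 were lower and 3 higher (21.1% and 21.5%). Leaving out 1 oocyte at a time gave 4 to 6 lower (14.2% to 17.6% of all genes) and 3 to 5 higher (11.1% to 14.7%). There were 3 higher without GV3 (13.5%), MII4 (13.4%) or MII6 (12.4%). Uncentred with all counts, the median ratio was -0.78 for SR genes and -0.999 for hnRNP genes, since the median gene itself was at -0.95; leaving out 1 oocyte gave -0.16 to 0.27 for SR genes and -0.28 to -0.02 for hnRNP genes. With totals of all counts the summed share in MII was 118 CPM for SR genes and 668 CPM for hnRNP genes. Without 1 oocyte these sums ran from 175 to 205 CPM and from 1035 to 1150 CPM in MII, and from 205 to 225 CPM and from 1259 to 1383 CPM in GV.

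Members lower in MII without overlap, 0 of 29, became 1 against GV1 to GV6 alone (1.32% of all genes) and 1 against GV7 to GV9 alone (12.0%). By CPM of all counts they were 2, Hnrnpa3 and Hnrnpk (4.51% of all genes). Leaving out 1 oocyte gave 0 to 1, with 1 without MII4 (1.10%). Members higher without overlap, 0, became 1 against GV7 to GV9 (8.58% of all genes). Without GV1, GV2, MII5 and MII6, an alternative added after seeing the data, there was also 1 (3.96%). Leaving out 1 oocyte gave 0. The ratio of Srsf2 changed sign with median CPM, to -0.29; the cause was not tested. No paired analysis was possible because the labels tie no MII oocyte to a GV oocyte: the oocyte numbers only name cells. Counts limit the lower members most: Hnrnph2 and Hnrnpll had 5 counts each over all MII oocytes.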

Other observations

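A second non-coding symbol, Hnrnpa1l2-ps2, had 0 counts in MII oocytes and 5 counts in GV oocytes.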
